A study of Bos taurus with 8 samples.

Results

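Genes that build ribosomes were followed in bovine blastocysts produced in vitro and in vivo. The set was chosen by name: every array probe whose annotated gene symbol begins with NOP, UTP, RRP or NOL and a digit, or is one of a short list of further symbols such as FBL, NPM1, DKC1, GNL3 and NOB1. This gave 69 of 43795 probes, standing for 49 of the 15229 gene symbols on the array, and 59 probes of 46 genes were bright enough to be tested. The rule itself uses names, not ratios.

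Ribosomes are assembled in the nucleolus, where RNA polymerase I transcribes a long precursor RNA that is modified, folded and cut while ribosomal proteins join it. Small nucleolar ribonucleoproteins of the box C/D class guide ribose methylation and those of the box H/ACA class guide pseudouridylation. The small-subunit processome forms on the first part of the precursor and matures into the small (40S) subunit, and another series of assembly factors brings the large (60S) subunit to export. Mammalian embryos build working nucleoli when their own genome is switched on, so a blastocyst can make ribosomes of its own.

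The in vivo blastocysts were flushed from the uterus of superovulated Holstein heifers, which had received 400 mg of FSH in 8 injections and 500 ug of a prostaglandin analogue. The first FSH dose was 60 mg and the last 20 mg, and the labels also record an ablation of follicles (8 mm). Blastocysts made in vitro came from oocytes of 2 to 6 mm follicles that were matured, fertilized and cultured, with the same pooled semen as the inseminations. The labels give slaughterhouse ovaries in one field and ovum pick-up in another as the source of these oocytes. Collection was at day 7 after insemination, with flushing timed at 7.5 days elsewhere in the labels, against 168 h after fertilization in vitro. The labels record a first insemination at 12 h and a second at 24 h for the in vivo embryos. Hormone treatment, oocyte source and collection scheme go with the kind of embryo, and their parts cannot be told apart from it. The number of embryos behind a replicate is not stated in the labels.

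Each of 4 replicates of in vitro embryo RNA was hybridised with an in vivo replicate on a pair of arrays that measure both dyes, with the dyes swapped between them. On slide 58 the in vitro RNA carried Cy5, and on slide 61 the in vivo RNA did. Ratios below are log2 of the in vitro over the in vivo signal, and means are given ± SE from limma (n = 4 replicates). A gene was called when its Benjamini-Hochberg adjusted p over all 10188 genes tested was under 0.05, and only called genes are said to have risen or fallen. A gene is represented by its brightest tested probe.

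Of the marker genes on the array, 8 of 8 for trophectoderm and 3 of 3 for the inner cell mass were bright enough to be tested, as were 6 of 6 for cumulus cells, so passing this filter does not tell tissues apart. CDX2, a trophectoderm factor, was detected on 6 of 8 arrays in vitro and 8 of 8 in vivo. The summed log2 levels, over the arrays, were 15.4 to 16.4 in vitro and 16.4 to 16.6 in vivo for trophectoderm. For the inner cell mass they were 12.0 to 12.7 and 13.3 to 14.0. These sums move with the kind of embryo, and their part in the results below was not tested. The brightest genes weigh most in a sum, and single markers differed in size or direction. NANOG fell by 1.77 ± 0.13 (limma adjusted p = 0.00502), while POU5F1 (-0.23) and SOX2 (-0.10) were below 0 too but not called. SOX2 was close to background, at a log2 level of 6.88 in vitro and 6.98 in vivo, which limits its ratio. Of the 8 trophectoderm genes 3 were lower, KRT19 (-2.50), KRT18 (-1.46) and GATA2 (-1.08), and 1, TFAP2C (0.67), was higher. Of all genes 12.6% were lower and 9.23% higher. Below 0 were 7 of the 8 trophectoderm genes, with a median of -0.71 over the 8. Tested were also 3 of 6 blood markers, 3 of 5 from oviduct and uterus and 1 of 4 from sperm. The summed levels in vitro and in vivo were 9.70 to 9.99 and 9.91 to 10.1 for cumulus and 8.56 to 9.94 and 8.87 to 9.72 for blood. For oviduct and uterus they were 8.53 to 9.18 and 8.65 to 9.76, and for sperm, where TNP1 was the tested gene, 6.80 to 7.84 and 8.51 to 9.35. The leukocyte markers LYZ and PTPRC had a probe not above background on any array in vitro, while another PTPRC probe was detected on all of them. In RNA from whole embryos, fewer cells of a type and less RNA per cell cannot be told apart.

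Of the 46 genes tested, 9 were lower and 2 were higher in vitro. The falls were NOP58, GNL2, RRP12, NOB1, FBL, NOP2, RRP1, RRP1B and BYSL, and the rises were RRP15 and WDR12. Over all genes tested 21.8% were called, 12.6% as lower and 9.23% as higher. Called genes made up 23.9% of the 46, close to that background, so the number of calls is not in itself a result about ribosome biogenesis. By direction, 19.6% of the 46 were lower and 4.35% were higher. The median log2 ratio was -0.16, against -0.01 over all genes tested, and 33 of 46 ratios were below 0 (71.7%, against 53.5% of all genes). With the replicate number as a block over the 8 arrays, 14 members were lower and 4 higher, where 17.1% of all genes were lower and 13.5% higher. That fit takes its degrees of freedom from 8 arrays although there are 4 replicates.

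**Figure D1:**
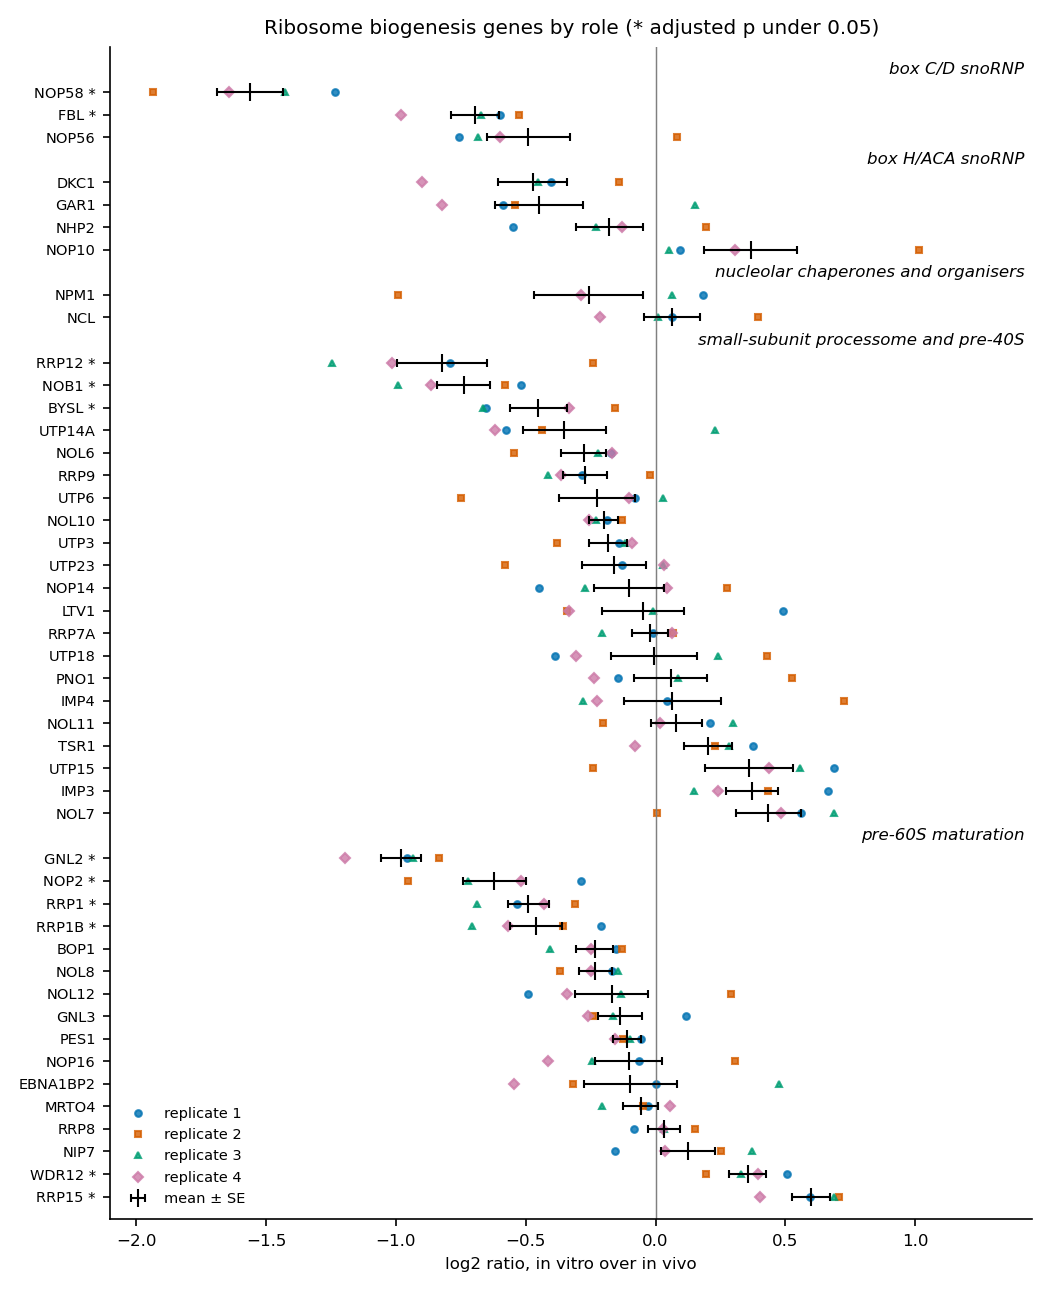
Log2 ratios (in vitro over in vivo, x axis) of the 46 tested genes, grouped by role (rows). Coloured symbols are the 4 replicates, each the mean of both dye orientations, and the black bar is the limma mean ± SE; most ratios lie left of 0, from NOP58 at -1.56 to RRP15 at 0.60.

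NOP58, a core gene of the box C/D particle, had the largest change of any member. The core proteins of this particle are the methyltransferase fibrillarin, encoded by FBL, and the paired scaffold proteins NOP56 and NOP58. NOP58 gave -1.23, -1.94, -1.43 and -1.64 in replicates 1 to 4. Its log2 level was 12.3 to 13.0 in vitro and 13.9 to 14.5 in vivo over the 8 arrays, which are 2 per replicate. The mean was -1.56 ± 0.13, a 2.95-fold fall (limma adjusted p = 0.00502), and NOP58 was the only member called with a change of at least 2-fold. FBL read -0.60, -0.53, -0.67 and -0.98 and fell by 0.69 ± 0.09 on the log2 scale (limma adjusted p = 0.00987). Every array put FBL lower in vitro, but the size differed between slides, at -0.99 on slide 58 and -0.40 on slide 61. Without replicate 3 the FBL call was just lost (-0.70, adjusted p = 0.0506).

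NOP56 was at -0.76, 0.08, -0.69 and -0.60 in the 4 replicates. Replicates 1, 3 and 4 were low and replicate 2 was near 0, and the mean of -0.49 ± 0.16 was not called (limma adjusted p = 0.0914). Without replicate 2 it was called (-0.68, adjusted p = 0.00401), and with the replicate number as a block it was called too (adjusted p = 0.0162). A second, dimmer NOP56 probe pointed the other way: it rose by 0.36 ± 0.05 (limma adjusted p over probes = 0.0165, where 15.8% of all probes were called), with all 8 arrays detected in vitro and 4 of 8 in vivo. That probe was close to background and passed the detection rule through the in vitro arrays, which favours a ratio above 0. The remaining core protein gene of the particle, NHP2L1 (now SNU13), is not in the set and gave -0.40 ± 0.12 (limma adjusted p = 0.0798).

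None of the 4 core genes of the box H/ACA particle passed the limma test, although DKC1 and GAR1 were below 0 at an unadjusted p under 0.05. DKC1 encodes the pseudouridine synthase dyskerin, and NHP2, NOP10 and GAR1 encode its partners. DKC1 read -0.40, -0.14, -0.45 and -0.90, below 0 in every replicate, with a mean of -0.47 ± 0.13 (limma adjusted p = 0.0629). It was called without replicate 2 (-0.58, adjusted p = 0.0247) and in the replicate block (adjusted p = 0.0113). Its second probe gave -0.38 ± 0.09 and was not called (limma adjusted p over probes = 0.0516). Adjustment over probes called 15.8% of them, against 21.8% of genes, so it is the stricter rule. The second DKC1 probe was detected on 7 of 8 arrays in vitro and 8 of 8 in vivo. It passed the detection rule through the in vivo arrays, which favours a ratio below 0. GAR1 was low in replicates 1, 2 and 4 and at 0.15 in replicate 3, with a mean of -0.45 ± 0.17 (limma adjusted p = 0.132). It was called without replicate 3 (-0.65, adjusted p = 0.0409) and in the block (adjusted p = 0.0306). NOP10 was at 1.01 in replicate 2 and between 0.05 and 0.31 in the others, with a mean of 0.37 ± 0.18 (limma adjusted p = 0.226).

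NHP2 was the member that differed most between the slides. Its brightest probe averaged -0.83 on slide 58 and 0.48 on slide 61, which cancel to -0.18 ± 0.13 (limma adjusted p = 0.409). Another NHP2 probe was lower on both slides, at -0.54 and -0.31, and fell by 0.42 ± 0.08 (limma adjusted p over probes = 0.0274). The 4 replicate values of that probe ran from -0.65 to -0.31.

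Nucleophosmin (NPM1), a nucleolar chaperone that gives the granular zone its liquid character, and nucleolin (NCL), which binds the precursor RNA, were not called. NPM1 gave 0.18, -0.99, 0.06 and -0.29. Replicate 2 alone stood low, and the mean was -0.26 ± 0.21 with a 95% interval from -0.80 to 0.28 (limma adjusted p = 0.464). The NPM1 spot read up to 32641, below the brightest spots of the arrays, which read 38342 to 40155. NCL was at 0.06 ± 0.11, with a 95% interval from -0.22 to 0.34 (limma adjusted p = 0.755). The NPM1 interval reaches as far as several of the falls that were called, and the NCL interval does not.

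In the small-subunit pathway 3 of 21 genes were lower, 0 were higher, and the median was -0.10. The 14.3% lower is close to the 12.6% of all genes. The count of 0 higher is limma's, and IMP3 and NOL7 were above 0 at an unadjusted p under 0.05. RRP12, which takes part in export of both subunits, read -0.79, -0.24, -1.25 and -1.02. Replicate 2 was the least low, and the mean was -0.82 ± 0.17 (limma adjusted p = 0.0316). NOB1, the nuclease that makes the last cut to form 18S rRNA, read -0.52, -0.58, -0.99 and -0.86, with a mean of -0.74 ± 0.10 (limma adjusted p = 0.0106). BYSL (bystin), needed to release the 40S precursor from the nucleolus, read -0.65, -0.15, -0.66 and -0.33, with a mean of -0.45 ± 0.11 (limma adjusted p = 0.0443). All 3 were lower in vitro on every one of the 8 arrays.

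These calls were not equally firm. The NOB1 call was lost without replicate 4 (-0.70, adjusted p = 0.0583). The RRP12 call was lost without replicate 1, 3 or 4, where the ratio was -0.83, -0.68 and -0.76 with adjusted p of 0.112, 0.102 and 0.122. BYSL was called in 6 of 13 alternative settings. Uncorrected background took the call away (-0.38, adjusted p = 0.0675), as did testing every probe however dim (adjusted p = 0.0598) and the deposited ratios (-0.47, adjusted p = 0.0529). Without replicate 1, 3 or 4 its ratio was -0.38, -0.38 and -0.49 with adjusted p of 0.154, 0.154 and 0.123. Adjusted over probes, as second probes were, BYSL was not called either (limma adjusted p over probes = 0.0537).

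The other 18 genes of the small subunit were not called, with ratios between -0.35 and 0.43. UTP14A, a processome component whose yeast counterpart activates a helicase, had the largest negative ratio among them, at -0.58, -0.44, 0.23 and -0.62 in the replicates (mean -0.35 ± 0.16, limma adjusted p = 0.197). Its slides disagreed, at -0.88 on slide 58 and 0.18 on slide 61, and so did those of its second probe (-0.79 and 0.17). Without replicate 3, the only replicate above 0, it was called (-0.54, adjusted p = 0.0417), where 4.91% of all genes were lower. Leaving out a gene's most discordant replicate favours a call, here as for NOP56, GAR1 and UTP15. The largest positive ratios belonged to NOL7 (0.43 ± 0.13, limma adjusted p = 0.0695) and to IMP3, a subunit of the MPP10 complex (0.37 ± 0.10, limma adjusted p = 0.0603). IMP3 was higher in vitro on all 8 arrays, and both genes were called in the replicate block (adjusted p = 0.0127 for NOL7 and 0.0187 for IMP3). The second NOL7 probe rose by 0.57 ± 0.08 (limma adjusted p over probes = 0.0132). UTP15 was high in replicates 1, 3 and 4 (0.44 to 0.69) and low in replicate 2 (-0.24), and without replicate 2 it was called (0.56, adjusted p = 0.00742).

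Genes of large-subunit maturation moved both ways. Of 16 tested, 4 were lower (25%) and 2 higher (12.5%), against 12.6% and 9.23% of all genes, with a median of -0.12. GNL2, a nucleolar GTPase of the pre-60S particle, read -0.96, -0.83, -0.94 and -1.20, the tightest of the large falls. Its log2 level over the arrays was 9.13 to 9.85 in vitro and 10.3 to 10.6 in vivo. The mean was -0.98 ± 0.08, a 1.97-fold fall (limma adjusted p = 0.00502). GNL3 (nucleostemin), a related GTPase known from stem cells, gave -0.14 ± 0.08 (limma adjusted p = 0.328). The difference between these genes was not tested.

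NOP2, the methyltransferase that modifies 28S rRNA, read -0.29, -0.96, -0.72 and -0.52 and fell by 0.62 ± 0.12 (limma adjusted p = 0.0264). The paralogues RRP1 and RRP1B, which bind pre-60S particles, fell by 0.49 ± 0.08 and by 0.46 ± 0.10 (limma adjusted p = 0.0160 and 0.0338). RRP1 was at -0.53, -0.31, -0.69 and -0.43, and RRP1B at -0.21, -0.35, -0.71 and -0.57. All of these values were below 0, as they were on each array. Calls of these genes did not all hold with 1 replicate left out, though every ratio stayed below 0. Calls over all genes dropped as well. Without replicate 1, 3 or 4, 4.59%, 4.91% and 3.5% of all genes were lower, against 12.6% with all 4 replicates. NOP2 was not called without replicate 3 (-0.59, adjusted p = 0.106) or 4 (-0.65, adjusted p = 0.0912). RRP1 was not called without replicate 1, 3 or 4 (-0.48, -0.42 and -0.51, adjusted p = 0.0778, 0.0623 and 0.0744). RRP1B was not called there either (-0.54, -0.38 and -0.42, adjusted p = 0.0589, 0.109 and 0.137), nor on slide 58 alone (-0.30, adjusted p = 0.0960) or with no background correction (-0.33, adjusted p = 0.0970).

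RRP15 and WDR12 were the members that rose. RRP15, needed for early pre-60S processing, read 0.60, 0.70, 0.69 and 0.40. Its log2 level over the arrays was 9.94 to 10.4 in vitro and 9.31 to 9.93 in vivo, and it rose by 0.60 ± 0.07, or 1.51-fold (limma adjusted p = 0.00863). The rise was larger on slide 58 (0.85) than on slide 61 (0.35), and without replicate 1 the call was just lost (0.60, adjusted p = 0.0502). WDR12 read 0.51, 0.19, 0.33 and 0.39, with a mean of 0.36 ± 0.07 (limma adjusted p = 0.0285). Without replicate 1, 3 or 4 it was at 0.30, 0.36 and 0.34 and was not called (adjusted p = 0.111, 0.104 and 0.127). Median centring in place of loess gave 0.34 with an adjusted p of 0.185.

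WDR12 works in the PeBoW complex with the products of PES1 and BOP1, neither of which was called. BOP1 was at -0.23 ± 0.07 (limma adjusted p = 0.0762), below 0 on all 8 arrays, and was called without replicate 2 (-0.27, adjusted p = 0.0439). PES1 was at -0.11 ± 0.05 (limma adjusted p = 0.219). Both PES1 and BOP1 were close to background, detected on 5 of 8 arrays in vitro and on 8 of 8 in vivo. The other uncalled large-subunit genes lay between -0.23 and 0.13.

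Not every member could be tested. NOL3, NOL4 and NOL9 had 1 probe each, which missed the detection rule: NOL3 was detected on 3 arrays in vitro and 7 in vivo, NOL4 on 3 and 4, and NOL9 on 7 and 6. NOL3 and NOL4 share the NOL prefix but are not known as ribosome assembly factors, as NOL3 encodes a repressor of apoptosis. NOL9 encodes a polynucleotide kinase that processes the spacer next to 28S rRNA. BOP1, PES1, RRP9 and UTP3 passed the rule through the in vivo channel alone, which favours ratios below 0 among them. With probes required on all arrays of both kinds of embryo, 42 members remained, with the same 9 lower and 2 higher and a median of -0.15, where 13.7% of all genes were lower and 10.2% higher.

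Several probes were tested for 12 members, and they give a check inside the array. The means lay closest for NOP10 (0.37 and 0.39), UTP14A (-0.35 and -0.31), DKC1 (-0.47 and -0.38), GNL3 (-0.14 and -0.02) and NOL7 (0.43 and 0.57). The second probes of DKC1 and GNL3 were detected on 7 and 5 of 8 arrays in vitro and on 8 of 8 in vivo. Both passed the detection rule through the in vivo arrays, which favours ratios below 0. The NOP10 probes still disagreed by replicate, since replicate 2 was at 1.01 on one and at -0.31 on the other. The probes of NOP56 lay furthest apart, at -0.49 and 0.36. Those of UTP15 gave 0.36 and -0.08, and those of NIP7 0.13 and 0.50. No member had probes called in opposite directions. None of the 11 called genes had a second tested probe, so each of those calls rests on 1 probe sequence.

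**Figure D2:**
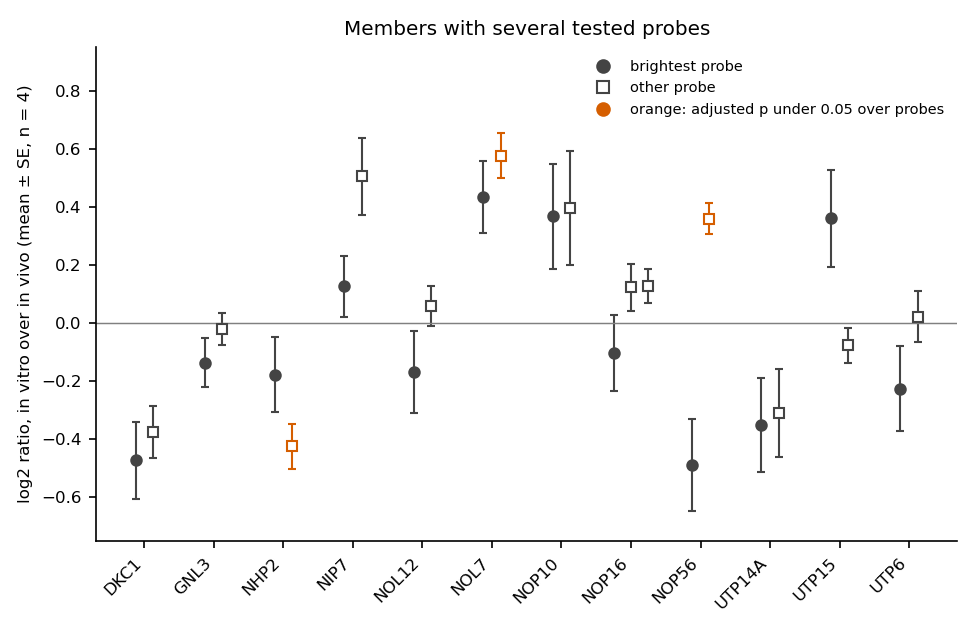
Log2 ratios (in vitro over in vivo, mean ± SE over 4 replicates, y axis) of every tested probe of the 12 genes with several (x axis). Filled circles are the brightest probes and open squares the others; orange marks an adjusted p under 0.05 over probes, and NOP56 has its probes on opposite sides of 0.

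Most members read differently on the slides, which differ in dye orientation as well, so slide and dye cannot be told apart. The ratio differed between slides in 34 of 46 (73.9%, limma over the 4 paired differences, adjusted p under 0.05), close to the 69.9% of all genes. In 20 of 46 (43.5%) the slides even differed in sign, against 41.9% of all genes. None of the 11 called genes was among these, and all 11 had 1 direction on all 8 arrays. In total 13 of 46 members did (28.3%, against 22.8% of all genes), the other two being IMP3 and BOP1.

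The shift of the group below 0 was larger on slide 61. There, 35 of 46 members were below 0 (76.1%, against 55.6% of all genes) and the median was -0.24. With slide 61 alone 17 members were lower and 4 higher, where 15.9% and 13.4% of all genes were. On slide 58 the count was 23 of 46, against 50.1% of all genes, and the median of the slide means was -0.01. The member medians of its 4 arrays were -0.09, 0.02, -0.07 and -0.23, against -0.02 to 0.00 for all genes. With slide 58 alone 12 members were lower and 5 higher, where 18.5% and 14.6% of all genes were. Each replicate mean holds both orientations equally, so a dye effect cancels in it. The called members held on either slide alone, except RRP1B on slide 58 and BYSL on slide 61 (-0.35, adjusted p = 0.0761).

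**Figure D3:**
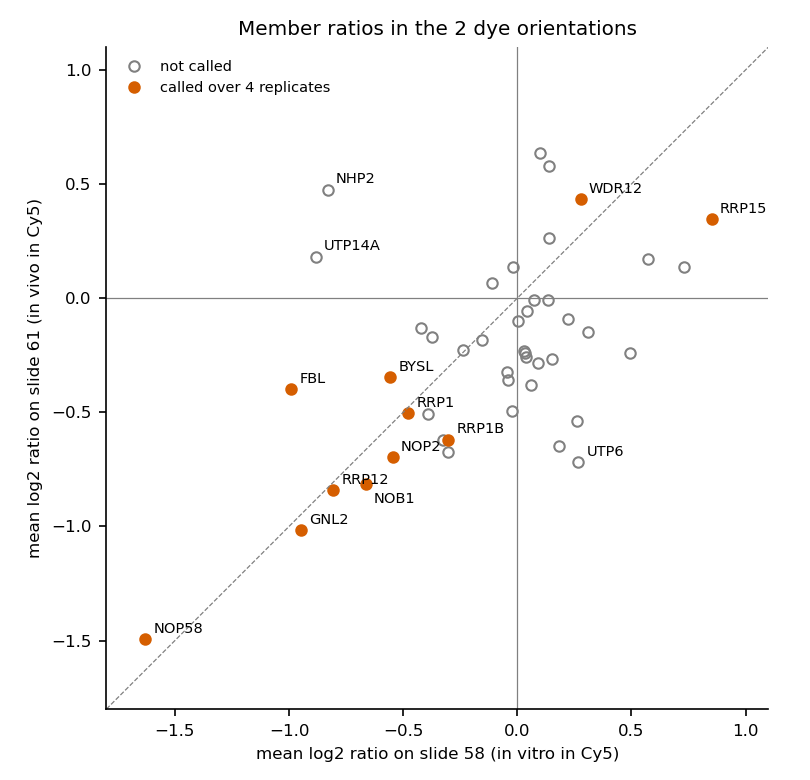
Mean log2 ratio of each tested member on slide 58 (x axis) and slide 61 (y axis), 4 arrays each; the dashed line marks equal values. Called genes (filled) lie near the line, FBL and RRP15 less closely, while NHP2, UTP14A and UTP6 have opposite signs on the slides.

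Replicate 2 stood apart over the whole array, and the members followed it. Of the 4 replicates it was the farthest from the mean of the others in 26 of 46 genes, against 7, 8 and 5 for replicates 1, 3 and 4. That is 56.5% of members, and the share of all genes was 58.3%. Across the members its ratios correlated at 0.43 to 0.61 with the other replicates, which correlated at 0.76 to 0.81 among themselves (Pearson's r over 46 genes of the same arrays, a description). Over all probes tested the values were 0.39 to 0.46 and 0.80 to 0.82. The member median was -0.15, -0.14, -0.14 and -0.25 in replicates 1 to 4, below 0 in each. Without replicate 2, 17 members were lower and 4 higher, where 20.2% and 16% of all genes were. Without replicates 1, 3 and 4 the counts were 5 and 0, 5 and 1, and 3 and 1, where the shares of all genes were 4.59% and 3.23%, 4.91% and 3.65%, and 3.5% and 2.77%.

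Grouped by complex, 1 had genes called in both directions. The complexes were drawn up from textbook composition after the values had been seen. In the UTP-B complex, a building block of the small-subunit processome, PWP2 and TBL3 fell by 0.52 ± 0.13 and by 0.40 ± 0.10, while WDR3 and WDR36 rose by 0.82 ± 0.06 and 0.47 ± 0.10 (limma adjusted p = 0.0463, 0.0479, 0.00502 and 0.0312). TBL3 was detected on 6 of 8 arrays in vitro and passed the detection rule through the in vivo arrays, which favours a ratio below 0. Its members UTP6 and UTP18 were at -0.23 ± 0.15 and -0.01 ± 0.16. In UTP-A, which starts processome assembly, CIRH1A (now UTP4) fell by 0.48 ± 0.11 (limma adjusted p = 0.0419), and UTP15, NOL11, WDR43 and WDR75 lay between 0.02 and 0.36, none of them called.

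The MPP10 complex had MPHOSPH10 falling by 0.38 ± 0.07 (limma adjusted p = 0.0215) beside IMP3 at 0.37 and IMP4 at 0.07 ± 0.19. By their brightest probes the 4 core genes of box C/D particles lay from -1.56 to -0.40, with 2 of 4 called, while the dimmer NOP56 probe was at 0.36. Among 8 factors of late 40S maturation 4 fell, NOB1, RRP12, BYSL and the kinase gene RIOK1 (-0.53 ± 0.13, limma adjusted p = 0.0452). Of all genes 12.6% were lower and 21.8% called. RIOK2, PNO1, TSR1 and LTV1 were not called, from -0.54 to 0.20. PNO1 encodes the partner that holds NOB1 inactive, and it gave 0.06 ± 0.14.

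**Figure D4:**
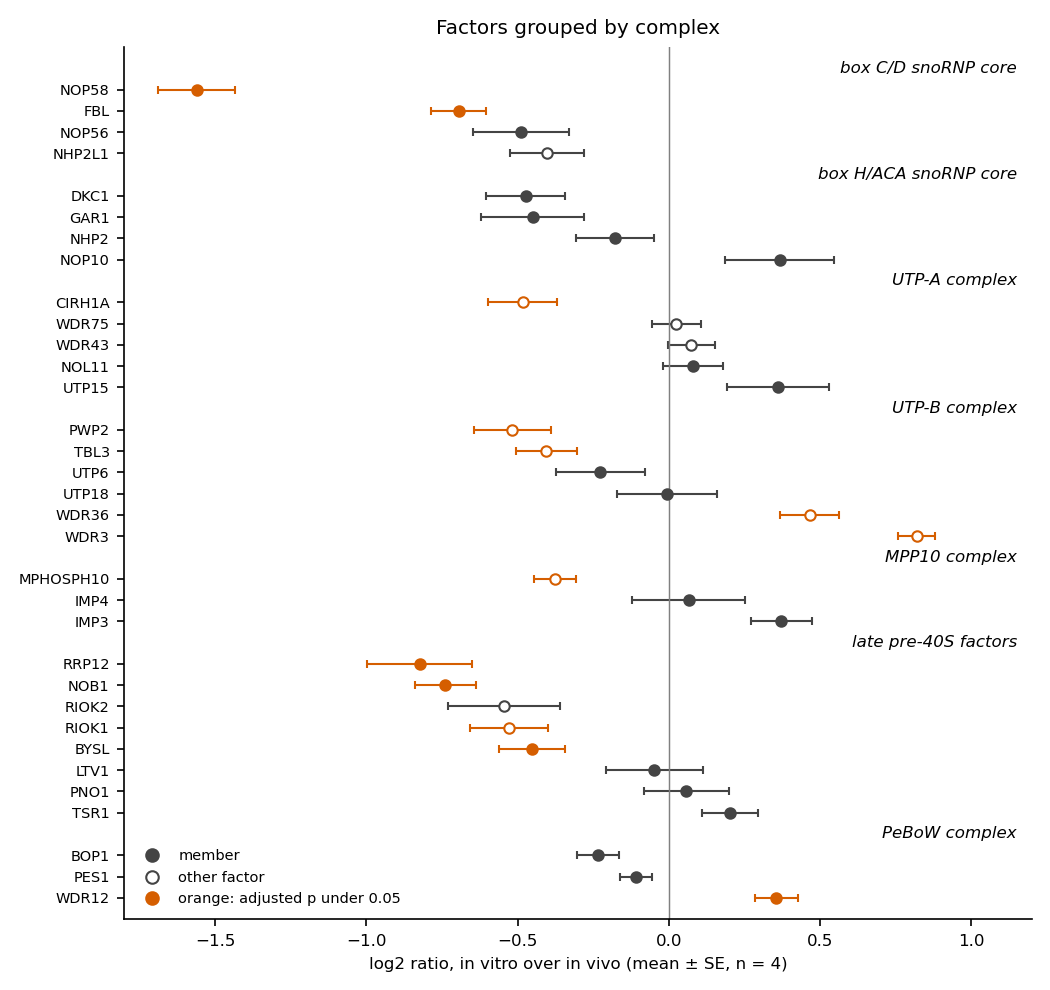
Log2 ratios (in vitro over in vivo, mean ± SE, n = 4, x axis) of factors grouped by complex (rows). Filled circles are genes of the set, open circles other factors, and orange marks an adjusted p under 0.05; UTP-B has called genes on both sides of 0, and the brightest probes of the box C/D core lie below 0.

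The rest of the pathway was described from lists of factors outside the set. Beside each list stand all genes tested, with 12.6% lower and 9.23% higher. RNA polymerase I and its factors had 1 of 13 tested genes lower (7.69%) and 0 higher by limma (none above 0 at an unadjusted p under 0.05), with a median of -0.18. The subunit gene POLR1C fell by 0.47 ± 0.10 (limma adjusted p = 0.0364), whereas POLR1A, which encodes the largest subunit, gave -0.62 ± 0.25 (limma adjusted p = 0.158). Other small-subunit factors had 8 of 32 lower (25%) and 5 higher (15.6%), with a median of -0.10. The largest changes were the helicase gene DDX10 (1.02 ± 0.06), the methyltransferase cofactor gene TRMT112 (-0.95 ± 0.16), the rRNA acetyltransferase gene NAT10 (-0.92 ± 0.07) and ABT1 (0.90 ± 0.10), with limma adjusted p from 0.00502 to 0.0179.

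Other pre-60S factors had 7 of 44 lower (15.9%) and 4 higher (9.09%), against 12.6% and 9.23% of all genes, with a median of -0.10. PAK1IP1 (-1.31 ± 0.16), the placeholder protein gene RSL24D1 (1.08 ± 0.06), the helicase gene DDX27 (-0.90 ± 0.17) and the SUMO protease gene SENP3 (-0.90 ± 0.13) led them (limma adjusted p = 0.00885, 0.00502, 0.0231 and 0.0114). Factors of snoRNP assembly and Cajal bodies had 3 of 11 lower (27.3%) and 2 higher (18.2%), with a median of -0.31. NOLC1, a chaperone of both snoRNP classes, fell by 1.02 ± 0.14, and TCOF1, a partner of RNA polymerase I, by 0.70 ± 0.14 (limma adjusted p = 0.0108 and 0.0270). RPAP3 rose by 0.49 ± 0.10, and COIL, which encodes the Cajal body protein coilin, fell by 0.44 ± 0.10 (limma adjusted p = 0.0303 and 0.0400).

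Nucleases of rRNA processing had 4 of 20 lower (20%) and 1 higher (5%), against 12.6% and 9.23% of all genes, with a median of -0.05. The exosome genes EXOSC10 and EXOSC5 fell by 0.80 ± 0.08 and 0.69 ± 0.09, RPP14 fell by 0.76 ± 0.11, and MPHOSPH6, an exosome cofactor gene, rose by 0.80 ± 0.15 (limma adjusted p from 0.00659 to 0.0214). MYC, a transcription factor known to drive ribosome synthesis, gave -0.31 ± 0.17 (limma adjusted p = 0.264). Among 9 tested genes of MYC and its partners 1 was lower (11.1%), MYCL1 (-0.88 ± 0.14, limma adjusted p = 0.0158), whose slides went opposite ways (-2.63 and 0.88). Cytosolic ribosomal protein genes had 25 of 67 lower (37.3%) and 1 higher (1.49%), with a median of -0.45. Their median was -0.38, -0.07, -0.66 and -0.58 in replicates 1 to 4, so replicate 2 showed little of this. By slide it was -0.28 on slide 58 and -0.52 on slide 61.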

How the data were processed

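Embryo RNA was isolated (PicoPure), amplified (RiboAmp) and chemically coupled to Cy3 or Cy5, per the labels' protocols. For every array the authors deposited a scanner file of raw spot intensity and local background in both channels, not background corrected per the file headers. They also deposited a table of log2 ratios for the same arrays, with no statement of its normalization in the labels or headers. Its columns correlated at 0.999 to 1.00 with the in vitro over in vivo ratios computed here (brightest probes, slope 0.967 to 1.03) and their medians were -0.004 to 0.001, so scale and direction are settled and centring is near 0.

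From mean intensity and median background, normexp (offset 50) gave corrected signals, which loess then normalized within arrays, with the 1425 control spots at weight 0 (limma 3.58.1, R 4.3.3; figures with Python 3.11.15 and matplotlib 3.10.9). Log2 levels of a channel were taken after quantile scaling of the array averages. A probe was detected where it exceeded the 95th percentile of 153 negative control spots of its channel; a probe entered the test if either kind of embryo had it detected throughout its 8 arrays, which kept 24775. Median spot intensity was 87.3 to 187 in Cy5 and 110 to 267 in Cy3, over backgrounds of 32 to 42 and 20 to 23. The number of replicates, 4, limits the precision. The arrays of a replicate number were averaged, since they hold the same extracts in swapped dyes; their deviations from the slide mean correlated at 0.703 to 0.894, against at most 0.149 with another number. limma's lmFit and eBayes were run on the intercept over all tested probes (prior df 2.01), two-sided, and p-values adjusted over 10188 genes, or over probes where said. The series' design text calls the 4 replicates of each kind biological. Alternatives were background correction, centring, the filter, the mean of probes, leaving out replicates, a replicate block, each slide alone and the deposited ratios. The procedure was tested on simulated data.

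Gene symbols come from the array's platform annotation, which can be old: 21790 probes have 1 symbol and 22005 have none. Of the 49 member symbols 48 are current in the ARS-UCD2.0 RefSeq table and 1, RRP7A, is a synonym there. No coordinates or sequences are given, as the files name no build and carry no sequence. The members, roles and lists were chosen with earlier results of these data known. Named are every called member, the largest ratio in each role, all members of roles with 5 or fewer genes, members with probes in disagreement, and up to 4 called genes of each further list with the largest change; other genes were named after their values were seen, as was the choice to group by complex.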

Additional observations from a re-analysis of the deposited data

Results flagged for a closer look

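In a screen of the 4 replicate values of each of 46 tested members, 2 had a value far from the other values of that gene, both in replicate 2. NOL6, of the small-subunit processome, was at -0.55 in replicate 2 and between -0.22 and -0.17 in the others. UTP6, of the UTP-B complex, was at -0.75 there and between -0.10 and 0.03 in the others. Chance gives about 1 such value in 20 groups.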

How the results depend on the processing

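Of 13 alternatives run on each called member, NOP58 and GNL2 were called in 13, FBL, NOB1 and RRP15 in 12, NOP2 in 11, RRP1 and RRP12 in 10, WDR12 in 9, RRP1B in 8 and BYSL in 6, always in the same direction (highest adjusted p 0.0393 for NOP58 and GNL2, and 0.0502 to 0.185 for the others). Leaving out 1 replicate at a time gave 282 to 1626 genes higher and 357 to 2063 lower over all genes, and 0 to 4 members higher and 3 to 17 lower. With the replicate block and a dye term 4 members were higher and 14 lower. On slide 58 alone 1491 genes were higher and 1881 lower, 5 members were higher and 12 lower, and the member median was -0.0073. On slide 61 alone 1362 genes were higher and 1622 lower, 4 members were higher and 17 lower, and the median was -0.24, with NHP2 at 0.48 in place of -0.18. The mean of a gene's probes gave 4 members higher and a median of -0.10. The causes of these differences were not tested. No background correction, median centring, no filter, the strict filter and the deposited log2 ratios kept the counts within 1.5 times, though BYSL, RRP1B or WDR12 lost its call in all of these but the strict filter, and the member median between -0.16 and -0.12. Signal near background limits the ratios of BOP1, PES1, UTP3 and RRP9. It limits some called falls too. The log2 level in vitro was 6.88 for RRP1B, 7.05 for RRP1, 7.13 for NOP2 and 7.38 for BYSL. UTP3 was at 6.87 and RRP9 at 7.21. These 4 called genes were still detected on all 8 arrays in both kinds of embryo.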
